A study of Rattus norvegicus with 32 samples.

Results

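Surviving CA3 neurons of rats given metyrapone before traumatic brain injury (TBI+MT) were compared with CA3 neurons of sham-injured rats at 4 h, to see which features of the injured state remained under the drug. The comparison takes every sample with those labels, which is 2 pools of TBI+MT and 2 pools of sham RNA, each run on 2 arrays, so 8 of the 32 arrays and 4 of the 16 pools of the study. The TBI+MT rats received metyrapone at 100 mg/kg under the skin, 90 min before fluid percussion TBI by the labels (the study's methods give a shorter interval), and the 4 h sham rats had the surgery without the injury and are labelled untreated, although the methods give them saline. All rats were adult male Sprague-Dawley. The other 4 h groups are given beside them, namely TBI alone and TBI with carbenoxolone at 30 mg/kg (TBI+CB), each with 2 pools. Each pool combined RNA of 3 to 6 rats, so that no value belongs to a single animal. The p-values measure only the spread between pools, except in an alternative fit of all 32 arrays given below. The neurons were cut out by laser from the CA3 field of the hippocampus, and only cells negative for Fluoro-Jade, a stain of degenerating neurons, were taken. The groups therefore describe the neurons that were not stained, and fewer cells of a type and less RNA per cell cannot be told apart.

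Metyrapone blocks the last step of corticosterone synthesis in the adrenal gland and so lowers the glucocorticoid surge that follows an injury. Glucocorticoids act through the receptor Nr3c1, which holds back many inflammatory genes and switches on genes such as Fkbp5 and Sgk1. CA3 pyramidal cells are among the neurons most easily lost after TBI, and injured hippocampus is known for an early wave of immediate early transcription factors, cytokines and chemokines.

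Levels are multiples of the median intensity of each array, with lower values set to a floor of 0.1, and differences are on the log2 scale, TBI+MT minus sham. A level compares pools for 1 probe and does not compare genes. Between 45.3% and 65.9% of probes lay above background on the TBI+MT arrays and between 50% and 52.7% on the sham arrays. The 2 TBI+MT pools differed in brightness, with median intensities of 58.1 and 67.1 on the arrays of pool 2 and 19.5 and 20.3 on those of pool 1, and their log2 levels correlated at 0.878 across probes, against 0.918 between the sham pools. TBI+MT pool 2 correlated with the sham pools at 0.933 and 0.914, more closely than with TBI+MT pool 1, and these correlations are a description across probes, which are not independent. By their header serials the TBI+MT arrays belong to one slide run and the sham arrays to another, so slide run and group cannot be told apart in this comparison, and a value with the slide run as a block rests on the TBI pools, of which pool 1 lies in the sham run and pool 2 in the TBI+MT run.

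The markers of the labelled cell type were present. Of 15 pyramidal neuron markers 7 were tested, and their summed level was 526 and 495 in the TBI+MT pools, against 519 and 499 in the sham pools, and none was at 0. Grik4, a kainate receptor subunit typical of CA3, had levels of 217 and 201 in TBI+MT, against 251 and 202 in sham. Slc17a7, the vesicular glutamate transporter of these cells, had 18.3 and 16.9 in TBI+MT and 20.8 and 22.9 in sham. The summed markers differed by less than the spread within the TBI+MT group, but Grik4 made up a large part of each sum. By gene, 3 of the 7 were higher and 4 lower, with a median difference of -0.05. The median level of the list was lower in both TBI+MT pools than in both sham pools. Neurod1 was the 1 member over 2-fold lower without overlap, with 1.94 and 3.74 in TBI+MT and 8.34 and 3.80 in sham. The level sum therefore does not show that every neuronal marker was unchanged. The summed vessel and microglia markers, given further on, were lower in both TBI+MT pools than in both sham pools.

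No probe passed limma's adjusted p under 0.05 in the comparison, 0 of 17597 or 0%, and the smallest adjusted p was 1.00. At an unadjusted p under 0.05 there were 336 probes (1.91%), 167 higher and 169 lower in TBI+MT, and the median standard error of a probe was 0.73 on the log2 scale, so that a 2-fold difference was often within error. Of 8285 named genes, 42 (0.507%) were higher and 88 (1.06%) lower at an unadjusted p under 0.05. A further description counts genes over 2-fold apart with no overlap between the pools, of which 125 (1.51%) were higher and 342 (4.13%) lower. The exact permutation test of 2 pools against 2 cannot go below 0.333. Every gene value below is therefore a description of these 4 pools, each with an adjusted p of 1.00 in limma. In all, 2637 genes (31.8%) were higher and 5648 (68.2%) lower, with a median of -0.20, and the lists below are given beside these shares. TBI against the same sham pools had a median of 0.38 over the same genes, with 72.5% higher.

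Secreted inflammatory mediators were among the genes furthest above sham, beside genes of other kinds. The largest difference of any named gene, 3.94, belonged to none of the mediators. Of 13 cytokines and chemokines tested out of 24 listed, 9 were higher and 4 lower in TBI+MT, 3 were over 2-fold higher without overlap, and the median difference was 0.13, or 0.33 above that of all genes. The 3 (23.1%, against 1.51% of all genes) were Il1b, Ccl2 and Ccl7. At an unadjusted p under 0.05, 2 of the 13 were higher (Il1b and Ccl2), against 0.507% of all genes. Il1b, the inflammatory cytokine interleukin 1 beta, had levels of 1.11 and 3.31 in the TBI+MT pools and 0.117 and 0.347 in the sham pools. Both TBI+MT pools lay above both sham pools, and the fitted difference, which takes the sham signals below background as measured, was 3.25 (SE 0.91, 95% interval 1.27 to 5.23). Il1b was above background on none of the sham arrays and on only 2 of the 4 TBI+MT arrays. The fold is therefore given as a bound, with the sham level replaced by the lowest signal that counts as above background. By this bound Il1b was 2.65-fold higher. The bound takes TBI+MT signals below background as measured, so it is not a strict minimum. Ccl2, which draws monocytes, had levels of 1.19 and 4.61 in TBI+MT and of 0.547 and 0.540 in sham. It was also below background on every sham array, and above it on only 2 of the 4 TBI+MT arrays. The same bound, with the same limit, was 3.24-fold higher in TBI+MT. Ccl7, a related monocyte attractant, stood at 3.05 and 11.7 in TBI+MT, against 1.01 and 2.16 in sham, a difference of 2.02 (SE 1.14), with pool 2 the higher in both groups.

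The same mediators were higher still in TBI alone. The TBI pools had 2.25 and 13.1 for Il1b, 3.4 and 9.09 for Ccl2, and 5.47 and 82.0 for Ccl7. The ranges of TBI+MT and TBI overlapped for all of these, and TBI+MT minus TBI was -1.50 for Il1b, -1.25 for Ccl2 and -1.82 for Ccl7, each with a limma adjusted p of 0.736. Cxcl1, a neutrophil attractant, had 1.32 and 6.21 in TBI+MT, 10.2 and 61.5 in TBI and 2.41 and 2.84 in sham, so that in TBI+MT it lay on both sides of the sham pools, with a difference of 0.13. With the slide run as a block the differences from sham were 0.71 for Il1b, 0.69 for Ccl2, -1.89 for Ccl7 and -2.46 for Cxcl1. The cytokine median was 0.81 without TBI+MT pool 1 and -0.08 without TBI+MT pool 2, while blocking on slide run gave -0.57, where all probes had a median of -0.50.

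Lcn2, the acute phase protein lipocalin that binds bacterial iron carriers and is made by stressed neurons and glia, was the clearest of its group. Its levels were 6.52 and 16.8 in TBI+MT, 24.8 and 31.4 in TBI and 0.689 and 2.58 in sham. Neither TBI+MT pool reached a TBI pool, and both exceeded both sham pools, with a difference from sham of 2.97 (SE 0.92, 95% interval 0.96 to 4.99) that was 2.63 when blocked on slide run. Of the 12 acute phase and extracellular protease genes, 8 were higher and 4 lower with a median of 0.15, and Lcn2 alone was over 2-fold higher without overlap. Tnc, the matrix glycoprotein tenascin C, was the one over 2-fold lower without overlap.

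The start-site regions of 3 of these genes are shown because these mediators stood above sham, with the letters of motifs whose factors are known to act on inflammatory genes. They were taken from RefSeq on build GRCr8 and run from 250 bases before the start site to 50 after it, with the matched letters in capitals; Ccl2 is named only. The motifs sought on both strands were TGANTCA (AP-1), the NF-kappaB motif, TTNNGCAA (C/EBP) and TATAAA, which occur in 7.33%, 1.11%, 10.6% and 14.2% of 33469 promoters.
Il1b, chr3:137036532-137036831, minus strand: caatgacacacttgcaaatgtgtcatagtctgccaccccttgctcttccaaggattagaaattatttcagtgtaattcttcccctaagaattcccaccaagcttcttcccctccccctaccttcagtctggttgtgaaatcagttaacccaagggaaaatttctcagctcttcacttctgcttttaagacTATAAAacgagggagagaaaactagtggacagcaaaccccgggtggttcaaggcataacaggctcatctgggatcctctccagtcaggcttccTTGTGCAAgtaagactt
Lcn2, chr3:36081731-36082030, minus strand: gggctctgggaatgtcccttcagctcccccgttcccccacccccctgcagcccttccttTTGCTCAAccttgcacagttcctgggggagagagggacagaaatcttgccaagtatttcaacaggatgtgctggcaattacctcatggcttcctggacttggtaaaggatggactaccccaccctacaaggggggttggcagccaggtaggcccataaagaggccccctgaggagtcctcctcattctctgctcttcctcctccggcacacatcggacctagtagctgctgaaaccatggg
Ccl7, chr10:67513845-67514144, plus strand: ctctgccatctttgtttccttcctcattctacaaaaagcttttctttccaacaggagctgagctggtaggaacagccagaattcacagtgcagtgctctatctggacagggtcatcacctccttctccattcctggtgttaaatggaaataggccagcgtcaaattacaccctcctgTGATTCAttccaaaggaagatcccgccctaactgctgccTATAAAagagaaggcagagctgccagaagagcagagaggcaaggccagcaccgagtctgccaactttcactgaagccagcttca
Il1b had a C/EBP match at base 33 after the start and TATAAA 60 bases before it. Lcn2 had a C/EBP match 191 bases before the start. Ccl7 had an AP-1 match 73 bases before the start and TATAAA 34 bases before it. The matches are letters in a window and are no evidence of binding.

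**Figure D1:**
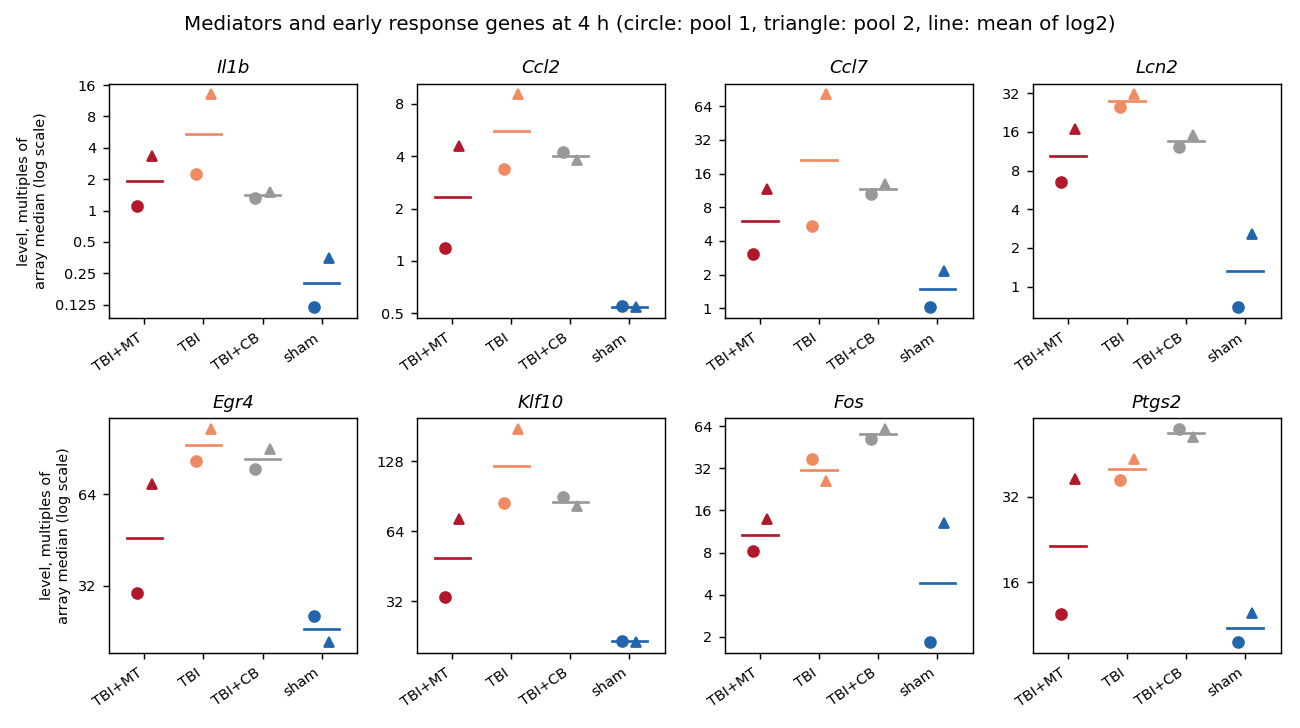
Levels of 8 inflammatory and early response genes at 4 h in TBI+MT, TBI, TBI+CB and sham pools (vertical axis: multiples of the array median, log scale; circle, pool 1; triangle, pool 2; line, mean of log2 levels). Il1b, Ccl2, Ccl7, Lcn2, Egr4 and Klf10 lay above both sham pools in both TBI+MT pools, and pool 2 of TBI+MT was the higher for each gene shown.

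Early response genes had medians above that of all genes in both TBI+MT and TBI. Of 18 immediate early transcription factors 10 were higher and 8 lower, with a median of 0.17 in TBI+MT, against 0.84 in the comparison of TBI with the same sham pools, which is 0.37 and 0.47 above all genes, and none reached an unadjusted p under 0.05. Egr4, a zinc finger factor induced by synaptic activity, had 30.3 and 69.4 in TBI+MT, 82.5 and 105 in TBI and 25.6 and 20.9 in sham. Klf10, a growth factor-induced repressor, had 33.5 and 72.3 in TBI+MT, 85.0 and 176 in TBI and 21.6 and 21.3 in sham. For both genes the TBI+MT pools lay between the groups with no overlap, and the differences from sham were 0.99 (SE 0.63) and 1.20 (SE 0.97). Klf10's second probe gave 0.34. With the slide run as a block Egr4 was 0.64, Klf10 0.15 and the list median -0.16, where all probes had -0.50.

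Fos, the classic marker of recent neuronal activity, had 8.20 and 14.0 in TBI+MT, 37.1 and 25.9 in TBI and 1.83 and 13.0 in sham. The sham pools were far apart, and without sham pool 1 the difference was -0.28, against 1.13 with it. Egr1 had 47.9 and 119 in TBI+MT, 185 and 283 in TBI and 49.4 and 46.6 in sham, and was above sham in pool 2 alone. Among the 12 activity-regulated effector genes 6 were higher and 6 lower, with a median of -0.04 in TBI+MT and 1.16 in TBI, or 0.16 and 0.78 above all genes. The TBI+MT median was 0.64 without TBI+MT pool 1 and -0.48 without TBI+MT pool 2. Blocking on slide run gave -0.57 for this list, 1.65 for Fos, 0.04 for Egr1 and 0.71 for the gene Ptgs2. Ptgs2, the inducible prostaglandin synthase, had 12.4 and 37.0 in TBI+MT, 36.7 and 43.3 in TBI and 9.87 and 12.5 in sham, so that its first TBI+MT pool lay within the sham range.

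The pathway table of the study was drawn up by its authors on these samples, and its genes are no independent evidence of direction. Of 70 tested, 34 (48.6%) were higher and 36 lower in TBI+MT, with a median of -0.05, against 1.12 in TBI over the same sham pools, where 65 (92.9%) were higher, and these medians are 0.15 and 0.74 above all genes. The TBI+MT median was 0.47 without TBI+MT pool 1 and -0.52 without TBI+MT pool 2. Of the 70, 4 (5.71%, against 1.51% of all genes) were over 2-fold higher without overlap and 2 (2.86%, against 4.13%) lower. Glis2, a zinc finger repressor, was among the higher ones, with 8.10 and 11.1 in TBI+MT, 10.7 and 17.0 in TBI and 2.11 and 2.94 in sham. Its TBI+MT and TBI ranges overlapped, and both lay above sham, with a difference of 1.93 (SE 0.59).

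Some of the genes above sham were also above TBI in both TBI+MT pools. Serinc2, of a family of membrane lipid carriers, had 74.8 and 73.5 in TBI+MT, 52.0 and 33.0 in TBI and 12.4 and 34.0 in sham. Tm6sf2, a membrane protein of lipid export, had 5.84 and 5.10 in TBI+MT, 3.07 and 1.19 in TBI and 0.952 and 1.39 in sham. Arpc5l, a subunit of the complex that branches actin filaments, had 2.21 and 1.68 in TBI+MT, 0.676 and 0.403 in TBI and 0.573 and 0.362 in sham. In each of these both TBI+MT pools exceeded every TBI and sham pool, with differences from sham of 1.85 (SE 0.55), 2.24 (SE 0.57) and 2.08 (SE 0.50) and from TBI of 0.84, 1.52 and 1.88, all at an adjusted p of 0.736 in the TBI comparison. Map2k3, a kinase of the stress-activated MAP kinase cascade, had 57.8 and 58.9 in TBI+MT and 40.6 and 41.7 in TBI. It had 84.2 and 93.1 in TBI+CB and 13.4 and 38.9 in sham. It was 1 of 2 MAP kinase genes of 13 (15.4%, against 1.51% of all genes) over 2-fold higher without overlap. In contrast to these, Rhbdl2, a membrane protease, had 2.86 and 7.41 in TBI+MT, 6.57 and 11.8 in TBI and 1.92 and 0.347 in sham, so that its TBI+MT pools overlapped TBI, with a mean below it, and lay above sham.

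Vessel and microglia markers had the lowest list medians, although with slide run blocked the dentate granule cell (-2.68), blood cell (-1.68), astrocyte (-1.51) and ribosomal (-1.50) lists lay below microglia (-1.44), and vessel markers were at -1.59. Of 12 endothelial, pericyte and smooth muscle markers, 10 were lower in TBI+MT, 6 at an unadjusted p under 0.05 and 7 over 2-fold without overlap, with a median of -1.74, which is 1.53 below all genes. The share lower was 83.3%, against 68.2% of all genes, and the share separated was 58.3%, against 4.13%. At that unadjusted p 1.06% of all genes were lower. Cldn5, the tight junction protein of brain endothelium, had 5.38 and 5.83 in TBI+MT, 18.4 and 16.9 in TBI and 19.0 and 36.6 in sham. Both TBI+MT pools lay far below every other 4 h pool but TBI+CB, which had 7.58 and 10.9, and the difference from sham was -2.23 (SE 0.55), or -2.11 with the slide run as a block. Tek, the angiopoietin receptor of endothelium, had 1.40 and 0.844 in TBI+MT, 0.916 and 0.286 in TBI and 4.83 and 7.73 in sham. Tek was thus also low in TBI, and its difference was -2.49, or -0.81 with the slide run as a block.

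Pdgfrb, the pericyte receptor, had 0.432 and 0.344 in TBI+MT, 0.267 and 0.254 in TBI and 0.963 and 2.16 in sham, at the low end of the array. Myh11, smooth muscle myosin, had 5.53 and 5.69 in TBI+MT, 10.5 and 33.3 in TBI and 15.4 and 68.7 in sham. The summed level of the vessel list was 33.8 and 34.5 in TBI+MT, 65.9 and 112 in TBI, 44.3 and 39.9 in TBI+CB and 65.4 and 167 in sham, so that both drug groups were low and sham pool 2 was highest. Without sham pool 2 the median was -1.06, and without sham pool 1 it was -2.41.

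Of 9 microglia and macrophage markers 7 were lower in TBI+MT, 3 at an unadjusted p under 0.05 and 5 over 2-fold without overlap, with a median of -1.12. The share lower was 77.8%, against 68.2% of all genes, and the share separated was 55.6%, against 4.13%. At that unadjusted p 1.06% of all genes were lower. Laptm5, a lysosomal protein of blood-derived and microglial cells, had 2.06 and 3.20 in TBI+MT, 8.28 and 12.2 in TBI and 8.79 and 21.7 in sham. Csf1r, the receptor that keeps microglia alive, had 14.0 and 16.4 in TBI+MT, 19.2 and 27.0 in TBI and 34.1 and 102 in sham. C1qb, a complement subunit made by microglia, had 0.519 and 0.384 in TBI+MT, 0.926 and 1.51 in TBI and 1.11 and 1.66 in sham. For all 3 both TBI+MT pools lay below every TBI and sham pool, though TBI+CB was as low for Csf1r (7.54 and 19.1) and C1qb (0.393 and 0.387), with differences of -2.43 (SE 0.57), -1.96 (SE 0.66) and -1.60 (SE 0.62) between TBI+MT and sham. The list's summed level was 35.9 and 33.0 in TBI+MT, 48.9 and 65.2 in TBI, 34.1 and 51.5 in TBI+CB and 61.0 and 168 in sham, and without sham pool 2 the median was -0.47.

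**Figure D2:**
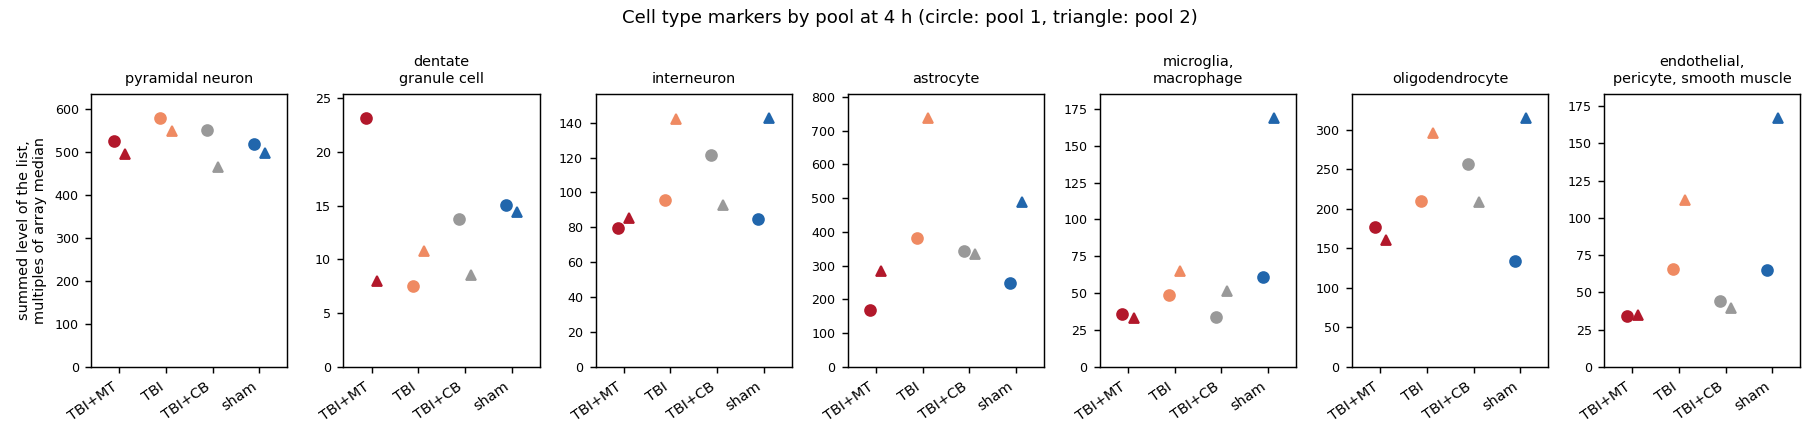
Summed level of 7 cell type marker lists in each 4 h pool (vertical axis: multiples of the array median, from 0; circle, pool 1; triangle, pool 2). Pyramidal neuron sums stayed between 495 and 526 in TBI+MT and between 499 and 519 in sham, while microglia and vessel sums were lower in TBI+MT than in TBI and sham, low in TBI+CB too, and highest in sham pool 2.

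Most astrocyte markers were lower, and oligodendrocyte markers were mixed. The astrocyte list had a median of -0.63 and 9 of 10 members lower, and its summed level of 168 and 283 in TBI+MT overlapped the 248 and 489 in sham. Gfap, the intermediate filament that reactive astrocytes raise, went the other way, with 10 and 7.14 in TBI+MT, 10.2 and 15.3 in TBI and 3.77 and 6.80 in sham. Gjb6, an astrocyte connexin that also belongs to the glucocorticoid-induced list, had 7.66 and 10.4 in TBI+MT, 24.9 and 41.7 in TBI and 14.8 and 40.2 in sham. Both TBI+MT pools lay below every TBI and sham pool. Oligodendrocyte markers split 4 to 4, with a median of -0.12. How far a share of non-neuronal RNA in the cut-outs moved the other gene values was not tested.

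The single genes furthest below sham included several of matrix and contractile proteins. Vim, the intermediate filament of mesenchymal, endothelial and glial cells, had 3.34 and 2.39 in TBI+MT, 5.79 and 21.2 in TBI and 39.4 and 30.5 in sham. It was lower in TBI+MT than in any TBI or sham pool, the difference was -3.62 (SE 0.69, 95% interval -5.12 to -2.11), and blocking on slide run gave -5.49. Fitting the 32 arrays with the pool as a random block made Vim the only probe to pass, with a limma adjusted p of 0.00249. In that fit duplicate arrays of a pool enter the error, so its p does not measure the spread between pools alone. In the fit of pools no probe passed. Pcolce, which helps cut procollagen, had 0.187 and 0.311 in TBI+MT, 0.128 and 0.404 in TBI and 6.42 and 10.1 in sham, a difference of -5.07 that its second probe gave as -4.49. Tpm2, a muscle tropomyosin, had 0.245 and 1.32 in TBI+MT, 2.30 and 2.30 in TBI and 7.48 and 31.6 in sham. Pcolce was equally low in TBI, whereas Tpm2 was lower in TBI+MT than in TBI. In the 24 h sham pools Pcolce was above background on no array and lay below both 4 h sham pools. The Pcolce difference therefore depends on the signal of the 4 h sham pools. Whether that signal is typical of sham rats was not tested.

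Lox, which crosslinks collagen, was below background on every TBI+MT array and was at least 5.80-fold lower than in sham, where it had 3.87 and 2.95. The 24 h sham pools had 0.318 and 0.742 for Lox, above background on no array. Ptgds, the prostaglandin D synthase of the leptomeninges, had 2.42 and 3.46 in TBI+MT, 6.90 and 6.28 in TBI and 25.1 and 14.0 in sham. Timp2, an inhibitor of matrix metalloproteases, had 1.61 and 2.88 in TBI+MT, 4.87 and 8.07 in TBI and 7.81 and 11.1 in sham. Both TBI+MT pools lay below every TBI and sham pool for both genes, and TBI overlapped sham for Timp2 but not for Ptgds.

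Srarp, a protein linked to steroid receptors, was at least 4.71-fold lower, and Hspb2, a small heat shock protein of muscle, at least 6.17-fold lower in TBI+MT, where both were below background on all 4 arrays. Tnc was at least 2.76-fold lower by the same bound. Each was below background on all 4 TBI arrays too. Gfra2, the neurturin receptor, was at least 6.19-fold lower in TBI+MT and was above background on all 4 TBI arrays. It had 4.33 and 2.66 in TBI and 1.02 and 12.7 in sham. In TBI+CB it was low too, with 0.532 and 0.134, above background on no array. Sema3f, a secreted axon guidance cue, had 0.256 and 0.766 in TBI+MT, 0.165 and 0.431 in TBI and 2.76 and 8.29 in sham. C1ql3, a secreted synaptic protein of dentate granule cells, was at least 4.00-fold lower, with 1.81 and 3.00 in sham. In the 24 h sham pools C1ql3 (0.269 and 0.227), Gfra2 (0.298 and 1.27), Sema3f and Tnc were above background on no array. Hspb2 (2.27 and 0.603) was above it on 2 of those arrays. Nsa2, a ribosome assembly factor, had 12.4 and 14.8 in TBI+MT, 36.7 and 43.3 in TBI and 55.6 and 41.1 in sham, although its second probe gave -0.45 against -1.82.

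**Figure D3:**
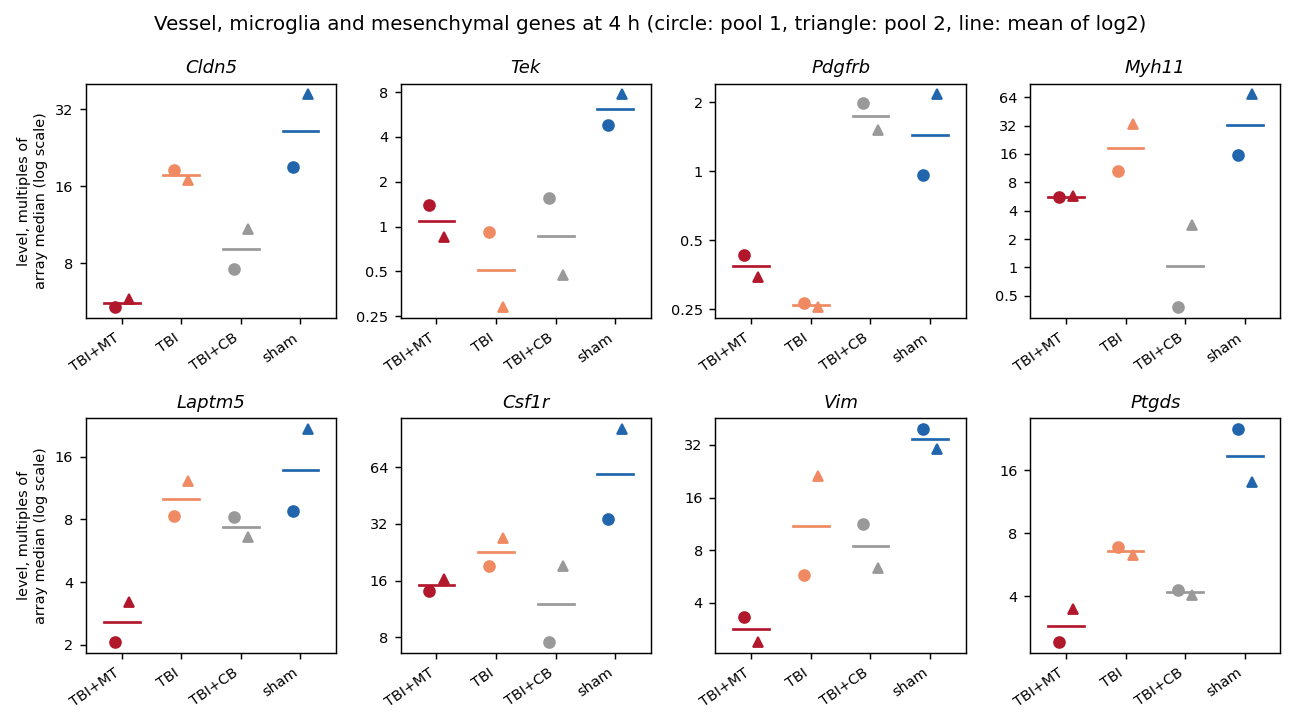
Levels of 8 vessel, microglia and mesenchymal genes at 4 h in TBI+MT, TBI, TBI+CB and sham pools (vertical axis: multiples of the array median, log scale; circle, pool 1; triangle, pool 2; line, mean of log2 levels). Each gene was lower in both TBI+MT pools than in both sham pools, and Tek and Pdgfrb were low in TBI as well.

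Interferon response genes were lower in a share near that of all genes, but more of them were over 2-fold lower. Of 16 tested, 12 (75%, against 68.2% of all genes) were lower and 4 higher, with a median of -0.51, or 0.31 below all genes. Over 2-fold lower without overlap was 1 (6.25%, against 4.13%). With overlap allowed, 6 of the 16 were over 2-fold lower, against 463 of all 8285 genes. At an unadjusted p under 0.05, 2 were lower, against 1.06% of all genes. Mx1, an antiviral GTPase, had 0.417 and 1.04 in TBI+MT, 2.28 and 5.99 in TBI and 2.28 and 7.24 in sham. Isg15, a ubiquitin-like protein induced by interferon, had 0.663 and 4.17 in TBI+MT, 5.92 and 7.36 in TBI and 3.09 and 12.1 in sham. Mx1 did not overlap between TBI+MT and sham, and Isg15 did.

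The activating enzyme and the receptors of corticosteroids overlapped between TBI+MT and sham. Hsd11b1, which regenerates active glucocorticoid inside cells, had 2.84 and 11 in TBI+MT, 13.4 and 45.7 in TBI and 5.48 and 13.4 in sham. The TBI+MT pools spanned the lower sham pool, and the difference of -0.62 (SE 0.88, 95% interval -2.55 to 1.30) became 0.35 without TBI+MT pool 1 and -2.40 with slide run blocked. Nr3c1, the glucocorticoid receptor, had 3.03 and 2.21 in TBI+MT, 1.98 and 0.479 in TBI and 2.78 and 1.26 in sham. Nr3c2, the mineralocorticoid receptor, had 40.6 and 97.6 in TBI+MT, 93.7 and 189 in TBI and 56.9 and 56.6 in sham. Neither receptor was separated from sham, and the intervals of their differences ran between -0.96 and 1.90 for Nr3c1 and between -2.0 and 2.29 for Nr3c2. Blocking on slide run gave 2.52 for Nr3c1, against 0.47, and -0.87 for Nr3c2, against 0.15.

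Of 15 glucocorticoid-induced genes 11 (73.3%, against 68.2% of all genes) were lower and 4 higher in TBI+MT than in sham. Their median was -0.37, or 0.17 below all genes, and 2 (13.3%, against 4.13%) were over 2-fold lower without overlap. The lower share was thus near that of all genes. Angptl4, the 1 member over 2-fold higher, had 0.560 and 1.12 in TBI+MT and 0.136 and 0.819 in sham. Its pools overlapped, and it was below background on every sham array. Fkbp5, a chaperone of the receptor and a standard readout of glucocorticoid action, had 113 and 112 in TBI+MT, 157 and 289 in TBI and 212 and 196 in sham. Sgk1, a kinase induced by the same hormones, had 10.4 and 23.9 in TBI+MT, 32.5 and 55.5 in TBI and 26.6 and 37.7 in sham. Both were lower in both TBI+MT pools than in every TBI and sham pool, with differences from sham of -0.85 (SE 0.61) and -1.01 (SE 0.83) that were within 2 standard errors of 0.

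Npy, Tac1 and Sst, of the neuropeptide genes, had levels in TBI+MT below those of both TBI pools. Npy, an inhibitory peptide that hippocampal neurons raise after seizures, had 1.87 and 2.74 in TBI+MT, 17.9 and 12.9 in TBI and 2.84 and 3.36 in sham. It was near sham in TBI+MT, with a difference of -0.45 (SE 0.63) from sham and of -2.75 (SE 0.63, adjusted p 0.736 in limma) from TBI. Tac1, the precursor of substance P, had 1.60 and 5.59 in TBI+MT, 24.9 and 39.8 in TBI and 5.45 and 14.6 in sham. Sst, somatostatin, had 0.336 and 0.728 in TBI+MT, 1.91 and 1.74 in TBI and 1.19 and 1.55 in sham. Npy and Sst were below both sham pools in both TBI+MT pools, and Tac1 overlapped them. Of the 15 peptide genes 9 (60%, against 68.2% of all genes) were lower and 6 higher, with a median of -0.14, or 0.07 above all genes. Over 2-fold lower without overlap were 2 (13.3%, against 4.13%). Since Npy and Sst also mark interneurons, the summed interneuron level is given, which was 79.5 and 85.2 in TBI+MT, 95.5 and 142 in TBI and 84.9 and 142 in sham.

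**Figure D4:**
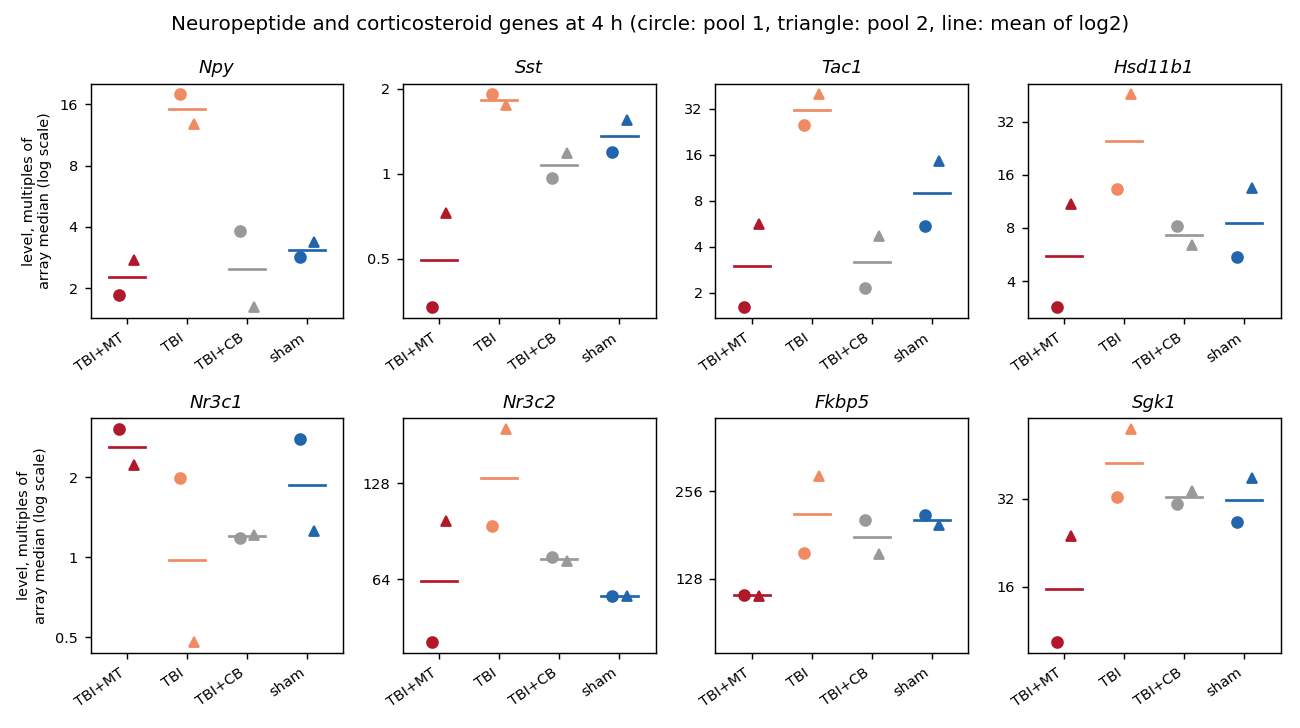
Levels of 3 neuropeptide genes and 5 genes of corticosteroid action at 4 h in TBI+MT, TBI, TBI+CB and sham pools (vertical axis: multiples of the array median, log scale; circle, pool 1; triangle, pool 2; line, mean of log2 levels). Npy was at 17.9 and 12.9 in TBI and at 1.87 and 2.74 in TBI+MT, near the sham pools, and Fkbp5 was lowest in TBI+MT.

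Genes of protein synthesis and respiration leaned below sham, by small amounts in the fit without a block on slide run. Of 41 cytosolic ribosomal protein genes 38 (92.7%, against 68.2% of all genes) were lower and 3 higher, with a median of -0.69, or 0.49 below all genes. At an unadjusted p under 0.05, 2 were lower, against 1.06% of all genes. Over 2-fold lower without overlap were 8 (19.5%, against 4.13%). Rps19, of the small subunit, had 83 and 56.3 in TBI+MT, 78.6 and 187 in TBI and 139 and 155 in sham. It did not overlap between TBI+MT and sham, and it overlapped between TBI and sham. With the slide run as a block the ribosomal median was -1.50 and Rps19 was -2.35.

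Complex I of the respiratory chain had 23 of 25 subunit genes lower with a median of -0.54, complexes III and IV 15 of 16 with -0.55, and ATP synthase 12 of 12 with -0.49. Ndufa6, a complex I subunit, had 125 and 107 in TBI+MT, 151 and 347 in TBI and 226 and 291 in sham. Uqcr11, of complex III, had 174 and 152 in TBI+MT, 247 and 357 in TBI and 286 and 278 in sham, and Atp5f1e, of ATP synthase, had 265 and 141 in TBI+MT, 186 and 381 in TBI and 367 and 407 in sham. Each of these was lower in both TBI+MT pools than in both sham pools, and none reached an unadjusted p under 0.05. All 10 superoxide dismutase, catalase and peroxidase genes were lower (median -0.60), as were 32 of 33 proteasome subunits (median -0.29) and 16 of 17 calmodulin, calcineurin and CaM kinase genes (median -0.56). The pool medians of the complex I list were 24.5 and 44.1 in TBI+MT and 44.3 and 45.8 in sham, so that pool 2 of TBI+MT, the brighter pool, lay close to sham and pool 1 below it. Without TBI+MT pool 1 the median was -0.19 for complex I, -0.04 for ATP synthase and 0.18 for the proteasome, and without TBI+MT pool 2 it was -0.89, -1.0 and -0.88. The proteasome median lay 0.09 below that of all genes. With the slide run as a block the medians were -1.34 for complex I, -1.34 for complexes III and IV and -0.76 for ATP synthase. They were -1.19 for the superoxide dismutase list, -0.79 for the calmodulin list and -0.49 for the proteasome, where all probes had -0.50. Ndufa6 was then at -2.35, Uqcr11 at -1.33 and Atp5f1e at -2.03.

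**Figure D5:**
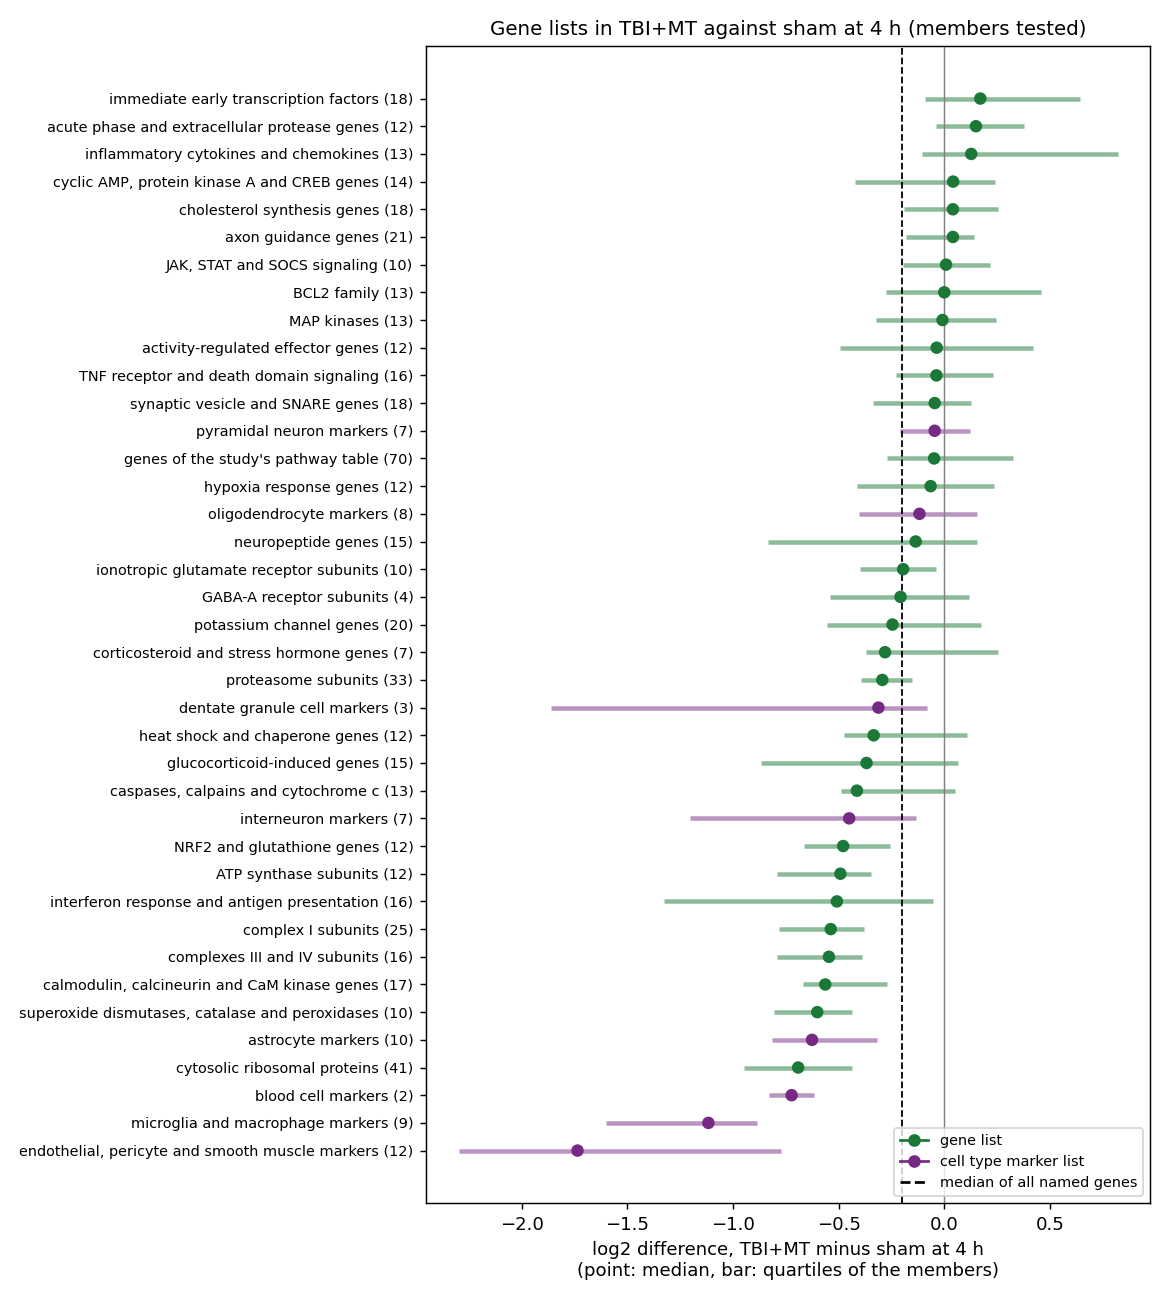
Median log2 difference of each gene list, TBI+MT minus sham at 4 h, with the quartiles of its members (horizontal axis: log2 difference; number of tested members in brackets; green, gene lists; purple, cell type markers; dashed line, median of all named genes at -0.20). Cytokine and immediate early lists were among the highest, at 0.13 and 0.17, and microglia and vessel markers lowest, at -1.12 and -1.74.

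At 24 h the same comparison was made in other rats, 2 pools each of TBI+MT and sham, also in different slide runs. The 24 h TBI+MT pools correlated at 0.733, the lowest of any group, against 0.868 between the 24 h sham pools. On the arrays of TBI+MT pool 1 only 26.1% and 28.8% of probes lay above background, against 42% and 48.8% for pool 2. The 24 h values rest on these pools. No probe passed limma's adjusted p under 0.05, with a smallest adjusted p of 0.328, and 810 passed an unadjusted p under 0.05. Lcn2 had 25.2 and 22.0 in TBI+MT, against 0.413 and 1.46 in sham, where no array had it above background, and was at least 20.3-fold higher (adjusted p 0.405 in limma). Gfap had 43.2 and 21.3 in TBI+MT, against 2.63 and 5.10 in sham, a difference of 3.05 (SE 0.54, adjusted p 0.353 in limma). Both TBI+MT pools exceeded both sham pools for each gene at both times. The microglia and macrophage list did not stay below sham. Its median was 1.16 at 24 h, with 7 of 9 members higher, against -1.12 at 4 h. The vessel list had a median of -0.26 at 24 h, with 3 of 12 members higher, against -1.74 at 4 h. All named genes had a median of -0.39 at 24 h.

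Vim ran the other way at 24 h, with 30.0 and 93.0 in TBI+MT and 13.9 and 17.9 in sham, a difference of 1.74 (SE 0.69), against -3.62 at 4 h. Il1b was below background on every TBI+MT and sham array at 24 h, so no difference is given. The change of the difference between the times was tested as an interaction over all probes, of which none was called, with a smallest adjusted p of 0.709 and 694 at an unadjusted p under 0.05, and Vim's own was 5.36 (adjusted p 0.709 in limma).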

How the data were processed

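RNA of laser-captured CA3 neurons was amplified in 2 rounds and hybridised by the authors to CodeLink rat arrays, with 16 pools on 32 arrays and each pool on 2 arrays. Per the file headers, CodeLink Expression Analysis 4.1.0 gave the raw intensity of each spot, which holds values below 0 and so appears background subtracted although no source states it, and the deposited intensity columns were used. The series value table, in which the authors' processed intensity is scaled to the array median, was an alternative. Spots flagged irregular were left out, intensities were divided by the array median, set to a floor of 0.1 and taken as log2, and the 2 arrays of a pool were averaged. A probe entered the fit where some group had it above background on each of its 4 arrays (17635 of 33849 probes), and 17597 had values in both groups compared here. Genes were named from the platform annotation (16878 probes with 1 symbol, 159 named from their description and 16812 left without a name, among them the 182 paired with several genes), and 1 probe per gene, the brightest on average, stood for 8285 genes.

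Groups came from the labels. All 16 pools were fitted with limma (version 3.58.1, R 4.3.3), with 8 residual and 3.88 prior degrees of freedom and Benjamini-Hochberg adjustment over all probes tested, and the procedure was tested on simulated data. Members and lists were chosen with earlier results of these data known. Named genes were those with the smallest p or the largest separated difference on each side, the 3 smallest p of each list and a fixed panel of injury, steroid and peptide genes, of which a part is given. Cxcl1, Egr1, Myh11, Fkbp5, Sgk1 and Grik4 were chosen after their values were seen. The number of pools and arrays limits the precision. Alternatives covered scaling, floor, filter, array, model and left-out pools. Replicate numbers were not taken as pairs, since deviations of same-numbered pools correlated at 0.073.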

Additional observations from a re-analysis of the deposited data

How the results depend on the processing

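No probe passed the adjusted p under any alternative but 1: the 32 arrays with the pool as a random block gave 1 probe, Vim. Duplicate arrays of a pool enter the error of that fit. Probes over 2-fold and not overlapping numbered 590 higher and 686 lower. They were 1388 and 1954 with no filter on dim probes, 154 and 226 among probes above background on all 8 arrays, 85 and 124 by the methods' 2-fold rule, and ranged from 943 to 1555 higher and from 769 to 3795 lower when 1 pool was left out. The lowest and highest of the lower counts were without TBI+MT pool 1 and pool 2, and the same of the higher counts without sham pool 2 and TBI+MT pool 1. They were not computed with the slide run or the replicate number as a block. Probes at an unadjusted p under 0.05 were 336, but 688 with no filter, 66 above background on all 8 arrays, 593 with the 2 groups alone, 985 with the slide run as a block, and 175 to 525 with 1 pool left out. The median over all probes was -0.12, but -0.02 by quantile normalization, -0.50 with the slide run as a block, and -0.34 to 0.14 with 1 pool left out.

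The replicate block gave 0 probes at the adjusted p (smallest 0.936) and 337 at the unadjusted p, and changed no other call. Of 54 genes named, 45 kept their sign under every alternative run, of 22 in all. Many were chosen for a small p or separated groups. A gene whose groups do not overlap cannot change sign when 1 pool is left out, so the count is a description only. With the slide run as a block Ccl7 was -1.89, Cxcl1 -2.46, Nr3c2 -0.87 and Npy 0.027, and by quantile normalization Grik4 was 0.20. With 1 pool left out, the difference ran from -0.99 to 1.24 for Cxcl1, -0.48 to 0.78 for Nr3c2, -1.60 to 0.35 for Hsd11b1, -0.0031 to 1.30 for Egr1, -0.28 to 2.55 for Fos, -0.10 to 1.04 for Nr3c1 and -0.27 to 0.047 for Grik4. The cause was not tested. TBI+MT pool 1 was the dimmer of its group.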
